A study of Mus musculus with 81 samples.

Results

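The transcriptome of H3.3cKO bone marrow cells was followed over the last step of their maturation into bone marrow-derived macrophages (BMDMs), from day 5 to day 7 of culture. The libraries were chosen by their titles: 3 cKO libraries of day 7 were set against 3 cKO libraries of day 5, which are 6 of the 81 libraries of the series. The labels call the cells of day 5 BMDM progenitors and those of day 7 BMDMs. All mice carried floxed alleles of both genes of histone H3.3, written H3f3a fl/fl and H3f3b fl/fl. WT mice had these alleles alone, and H3.3cKO mice also had cre in both copies of the Lyz2 gene, written LysM cre/cre. The mice were C57BL/6 males and females of 8 to 10 weeks, and whole bone marrow was grown in medium with 20% L929 cell-conditioned medium, a source of M-CSF. Cre made from Lyz2 becomes active as myeloid cells mature, so that the deletion is not given to be the same in every cell, and the libraries are of the whole culture. Total RNA depleted of ribosomal RNA was sequenced, and the values are read counts per gene. The 3 WT libraries of each day were used only to show where the cKO step differed, and day 3 was read as the starting level.

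M-CSF drives marrow progenitors through a monocyte stage to macrophages. Progenitors shared by granulocytes and monocytes make the serine proteases and the peroxidase of azurophil granules, and precursors that go on to neutrophils make the proteins of the later granules. These genes are shut as macrophages mature, while phagocytic receptors, complement and lysosomal genes are kept or rise. H3.3 is the histone H3 variant placed in chromatin outside DNA replication, and its loss in these cells has been tied to interferon-stimulated genes (ISGs), the antiviral genes that type I interferon induces.

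Counts on genes ranged from 15882161 to 19316661 in the 6 cKO libraries, and 15955 genes passed the filter on low counts over the 18 libraries of the time course. In counts scaled to a library of 1000000 (CPM), H3f3a was at 8.94, 9.96 and 8.96 in the cKO libraries of day 5 and at 6.82, 10.02 and 8.71 on day 7, while the WT libraries of those days ranged from 44.2 to 69.1. H3f3b lay between 149 and 206 in the 6 cKO libraries, and between 181 and 280 in the WT libraries, so that gene-wide counts separate the genotypes by H3f3a and not by H3f3b. The study describes H3f3b deletion as variable, complete in some cKO samples and partial in others. It reports depletion of H3.3 mRNA by qRT-PCR and RNA-seq, and of the protein by western blot, in cKO BMDMs. Lyz2, which the cre alleles interrupt, was at 4.57 to 14.1 CPM in cKO libraries and at 5928 or more in WT libraries. The 44 macrophage surface and scavenger genes summed to between 13564 and 18668 CPM in the 6 cKO libraries. The 12 T and NK cell markers summed to 4.32 CPM at most, with Cd3g and Gzma at 0 in the 6 libraries. The 12 erythroid and megakaryocyte markers summed to 88.4, 191 and 156 CPM on day 5 and to 114, 88.1 and 76.5 on day 7. Most of that sum was Pf4, platelet factor 4, at 83.4, 184 and 149 CPM and then at 113, 85.9 and 74.1, while the globin genes Hba-a2 and Hbb-bt were at 0.

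The libraries numbered 1 stood apart from the others on both days. Compared gene by gene, chi-square per degree of freedom was 44.7 to 55.4 between a library numbered 1 and another of its day, and 4.05 and 5.68 between the libraries numbered 2 and 3. Same-numbered libraries deviated from their day means together in cKO cells, with correlations across genes of 0.45, 0.49 and 0.23. Libraries numbered 1 had correlations of -0.46 to -0.19 with libraries of another number. Deviations from a day mean cancel out within the day, so these negative values follow in part from the 0.45 between the libraries numbered 1. Day 5 replicate 2 and day 7 replicate 3 had 0.19, and day 5 replicate 3 and day 7 replicate 2 had 0.08. The numbers were taken as pairs, though these correlations set number 1 apart more clearly than they set 2 from 3. The labels call the libraries biological replicates and do not say what a number shared between days stands for. Across the 8937 genes whose log2 CPM averaged 3 or more, the day 7 to day 5 differences of pairs 2 and 3 correlated with r of 0.90, while those of pair 1 correlated with r of -0.09 with pair 2 and -0.12 with pair 3. Genes are not independent replicates, and these are descriptions. Results of the cKO step below are therefore also given by library, by pair or without both libraries numbered 1. The test of the cKO step against the WT step was not run without them.

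Few genes passed the test in this step, and all that did were lower on day 7. By edgeR's quasi-likelihood test, 9 of 15955 genes were called lower (adjusted p under 0.05, 0.0564% of the genes tested) and 0 were called higher, with 797 genes at an unadjusted p under 0.05 (5.00%). A block fit, with a term for each number within each genotype over the 18 libraries, called 65 genes lower (0.407%) and 3 higher. These 68 genes (0.426%) held all 9 of the first fit, and values given below with the block are from it. With a block in only the 6 cKO libraries, 22 genes were called lower and 1 higher, among them 5 of the 9. DESeq2 called 90 genes lower and 8 higher. Without both libraries numbered 1, 31 genes were called lower and 0 higher, among them 7 of the 9. Leaving out 1 cKO library at a time gave between 0 and 47 calls, with none when day 5 replicate 1, day 7 replicate 2 or day 7 replicate 3 was left out, and all 9 genes kept their sign in every fit. The cultures are bulk samples, in which fewer cells of a kind and less RNA per cell cannot be told apart.

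The 9 genes were Elane, neutrophil elastase, Fcnb, a lectin of the ficolin family, Myb, the transcription factor of haematopoietic progenitors, Chil3, the chitinase-like protein Ym1, Prom1, the progenitor surface protein CD133, Rab44, a Rab GTPase of granulocytes and mast cells, Mgam, an intestinal and granulocyte maltase, Mreg, melanoregulin, and F730016J06Rik, a transcript without an established role. Their log2 fold changes lay between -3.32 for Prom1 and -2.05 for Myb. Only Elane and Chil3 met the rule for the named genes, which asks for an average log2 CPM of 3 or more, and the other 7 are named because they complete the count. Of the 65 genes called lower with the block, 63 had no overlap between days, which the choice of these genes from the same libraries favours (5.88% of all genes tested were lower without overlap). All 65 were also lower in the WT step. The lists of progenitor, neutrophil granule and monocyte-stage genes, with 22, 25 and 29 genes tested, held 24 of the 68 called. Over all 15955 genes tested, 0.426% were called, and the lists were chosen with earlier results of these data known.

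Promoters of 4 of these granule and monocyte genes are shown because these genes, called lower with the block, carry the main result of the step. All 4 hold the motif marked below, which most promoters of the progenitor and granule lists do not. They are RefSeq sequences of mouse GRCm38.p6, 250 bases before to 50 after the start, written 5′ to 3′ along the gene, and the capitals mark AGGAAGT or its reverse complement, the core that the myeloid factor PU.1 favours.
Elane promoter, chr10:79886062-79886361, plus strand: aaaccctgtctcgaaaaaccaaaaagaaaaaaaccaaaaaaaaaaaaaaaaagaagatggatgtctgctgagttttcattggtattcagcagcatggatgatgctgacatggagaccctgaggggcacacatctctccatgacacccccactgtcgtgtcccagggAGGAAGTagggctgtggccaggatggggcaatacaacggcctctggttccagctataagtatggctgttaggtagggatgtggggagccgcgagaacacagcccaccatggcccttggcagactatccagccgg
Prtn3 promoter, chr10:79879417-79879716, plus strand: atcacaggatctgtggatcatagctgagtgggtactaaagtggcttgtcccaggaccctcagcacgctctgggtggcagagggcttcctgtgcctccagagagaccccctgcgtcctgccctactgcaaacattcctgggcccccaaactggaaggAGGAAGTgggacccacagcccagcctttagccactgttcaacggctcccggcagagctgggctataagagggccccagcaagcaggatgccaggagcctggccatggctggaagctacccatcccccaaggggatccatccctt
Mpo promoter, chr11:87793534-87793833, plus strand: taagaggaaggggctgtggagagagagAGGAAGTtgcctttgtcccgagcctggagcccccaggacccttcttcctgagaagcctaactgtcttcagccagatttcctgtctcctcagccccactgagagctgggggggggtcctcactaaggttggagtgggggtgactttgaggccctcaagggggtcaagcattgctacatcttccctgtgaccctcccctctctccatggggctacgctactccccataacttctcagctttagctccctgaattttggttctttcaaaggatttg
Chil3 promoter, chr3:106167515-106167814, minus strand: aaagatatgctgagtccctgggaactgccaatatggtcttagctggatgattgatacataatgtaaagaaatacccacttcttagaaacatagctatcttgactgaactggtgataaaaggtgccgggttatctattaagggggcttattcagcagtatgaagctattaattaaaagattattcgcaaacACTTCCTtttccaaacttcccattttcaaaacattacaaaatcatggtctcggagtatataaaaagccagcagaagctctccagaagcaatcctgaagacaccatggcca

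By GENCODE, Elane lies at chr10:79886247-79888215 and Prtn3 next to it at chr10:79874476-79883174, both on the plus strand of mm10, which is GRCm38. Mpo lies at chr11:87793581-87804413 on the plus strand and Chil3 at chr3:106147554-106167564 on the minus strand. The counted letters begin 84 bases before the start in Elane, 94 in Prtn3, 223 in Mpo and 60 in Chil3, as the table of promoters places the start, which for Elane, Prtn3 and Mpo lies inside the GENCODE gene. Of the 65 genes called lower with the block, 51 had a promoter in the table and 14 of those (27.5%) held AGGAAGT on either strand, against 9.57% of all 27025 promoters. It was in 5 of 21 promoters of the progenitor list (23.8%), in 5 of 21 of the neutrophil granule list (23.8%) and in 9 of 49 of the ISGs (18.4%). CCAAT was in 47.1% of the 51 against 37.9%, TTNNGNAA, letters bound by C/EBP factors, in 45.1% against 40.7%, AACNG, bound by MYB, in 78.4% against 80.4%, and TTTGAA in 19.6% against 18.1%. The interferon response element was in 0 of the 51 and in 3.49% of all, TTTCCCGC in 1 and TTTGGCGC in 0. Matches were counted whether or not they overlapped another motif, and AGGAAGT, TTNNGNAA and AACNG were chosen after the values were seen. A match in these windows is a description of letters.

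Azurophil granule genes made by progenitors were lower on day 7. Elane was at 120, 34.3 and 49.8 CPM on day 5 and at 12.8, 3.34 and 10.2 on day 7, a mean of 68.0 ± 45.6 against 8.76 ± 4.87 (SD, n = 3). No day 7 library reached the lowest day 5 library, and the mean left on day 7 was 12.9% of that on day 5. The log2 fold change of Elane was -2.95 (SE 0.47, adjusted p = 0.0417), and -2.90 (SE 0.31, adjusted p = 0.0017) with the block. Adjusted p ranged from 2.81e-07 to 0.401 over the alternatives and was 0.028 without both libraries numbered 1.

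Mpo, myeloperoxidase, was at 151, 44.9 and 66.6 CPM on day 5 and at 16.4, 7.15 and 16.6 on day 7. Its log2 fold change of -2.70 (SE 0.49) did not pass (adjusted p = 0.0571) and passed with the block (adjusted p = 0.0091, 8.50e-06 to 0.453 over the alternatives). Prtn3, proteinase 3, was at 107, 25.5 and 32.3 CPM on day 5 and at 14.998, 4.16 and 11.2 on day 7. Ctsg, cathepsin G, the protease stored with the others, was at 42.6, 10.9 and 15.3 CPM and then at 4.53, 2.64 and 6.14. The groups did not overlap for any of these 4 genes, and each was lower in all 3 pairs. Prtn3 and Ctsg had adjusted p of 0.0795 and 0.0571, and of 0.0092 for both with the block. Adjusted p ranged from 3.78e-05 to 0.507 for Prtn3 and from 1.64e-05 to 0.469 for Ctsg over the alternatives, and neither passed without both libraries numbered 1 (0.080 and 0.153). With the block in only the 6 cKO libraries, Mpo passed (adjusted p = 0.048), and Prtn3 and Ctsg did not (0.079 and 0.150). In each of these 4 genes the library numbered 1 was the highest on day 5.

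Among the 22 myeloid progenitor genes tested, 19 were lower on day 7, 14 without overlap (5.88% of all genes tested), and the median log2 fold change was -1.81, beside 0.01 over all genes. 3 of the 22 were called, Elane, Fcnb and Myb, and 8 were called lower with the block (0.407% of all genes tested). Myb was at 10.2, 6.62 and 5.28 CPM on day 5 and at 1.41, 1.41 and 2.47 on day 7, and it fell by 2.05 on the log2 scale (SE 0.35, adjusted p = 0.0468). Fcnb fell by 2.62 on the log2 scale (SE 0.43, adjusted p = 0.0467), from 20.4, 9.86 and 10.2 CPM to 4.18, 1.11 and 1.31. Ms4a3, a marker of the granulocyte and monocyte progenitor, was at 13.3, 3.14 and 4.08 CPM and then at 1.53, 0.59 and 1.10 (adjusted p = 0.0571, 0.013 with the block). Without both libraries numbered 1 the list's median was -1.61, with 19 of 22 genes lower and 3 called, and Myb had an adjusted p of 0.18. With the block in only the 6 cKO libraries, Myb and Ms4a3 had adjusted p of 0.157 and 0.078, and Fcnb of 0.034.

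**Figure D1:**
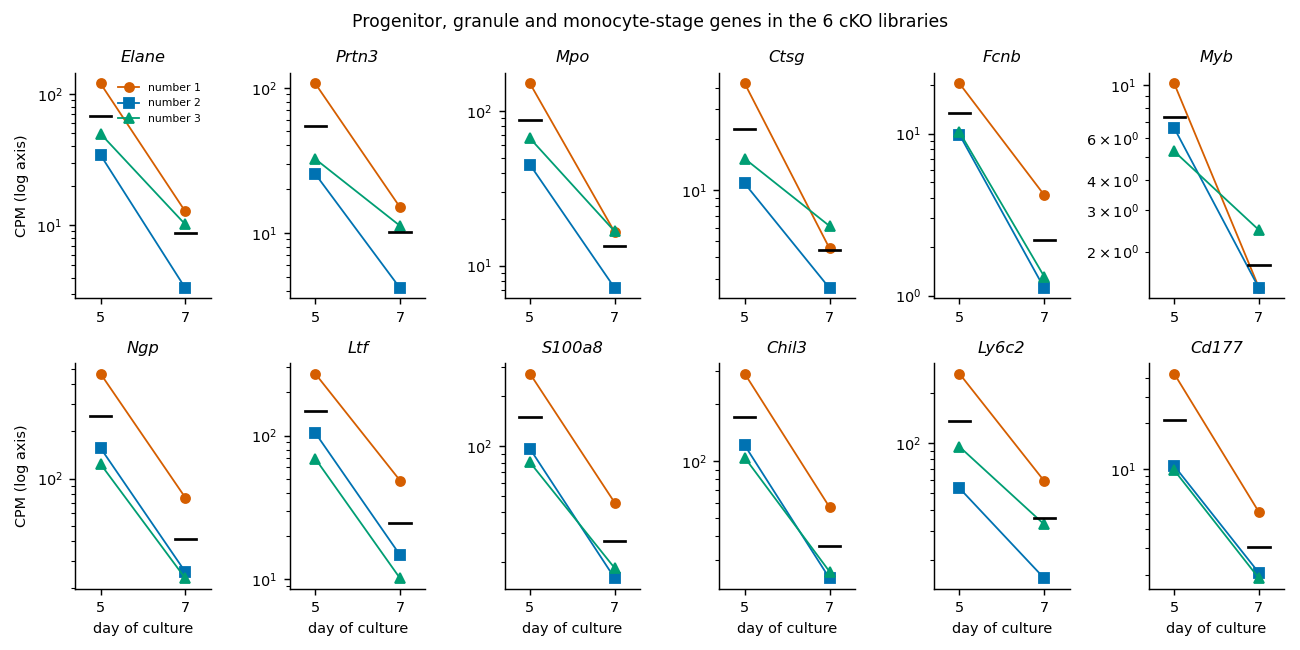
CPM on a log axis of 12 progenitor, granule and monocyte-stage genes on day 5 and day 7 in the cKO libraries, with 1 line for each pair of same-numbered libraries and a black bar for the mean of 3. Every line falls, the library numbered 1 is the highest on day 5 in all 12 panels, and Elane falls from a mean of 68.0 to 8.76 CPM.

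Genes of the later neutrophil granules were lower in the same step. Of 25 neutrophil granule genes tested, 24 were lower on day 7 and 15 were lower without overlap (5.88% of all genes tested). The median log2 fold change was -2.45, and 19 genes were at an unadjusted p under 0.05 (5.00% of all genes tested, in either direction). None was called, and 11 were called lower with the block (0.407% of all genes tested). Summed over the list, day 5 libraries held 2572, 1194 and 1062 CPM and day 7 libraries 977, 560 and 597, and the cKO libraries of day 3 held 3411 to 5124. The 3 day 7 sums were all below the 3 day 5 sums, and the day 7 sum was 0.38, 0.47 and 0.56 of the day 5 sum in pairs 1, 2 and 3.

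Ngp, neutrophilic granule protein, was at 465, 156 and 124 CPM on day 5 and at 75.6, 25.5 and 23.2 on day 7. The 3 pairs fell alike, by 2.62, 2.61 and 2.41 on the log2 scale. The fit gave -2.58 (SE 0.49, adjusted p = 0.0609) without and -2.56 (SE 0.26, adjusted p = 0.0017) with the block, and adjusted p ranged from 1.64e-05 to 0.484 over the alternatives. S100a8, a subunit of calprotectin, was at 274, 96.8 and 80.2 CPM and then at 45.8, 16.05 and 18.5. Its partner S100a9 was at 433, 138 and 107 CPM and then at 71.9, 22.1 and 24.9. The iron-binding lactoferrin gene Ltf was at 271, 105 and 69.2 CPM and then at 48.6, 14.7 and 10.1. For these 4 genes the day 7 libraries all lay below the day 5 libraries, and the library numbered 1 was the highest on both days. Mmp8, neutrophil collagenase, differed in that its day 5 libraries lay close together, at 117, 118 and 89.1 CPM, with day 7 at 56.8, 39.3 and 41.8. Its adjusted p was 0.0715 for a log2 fold change of -1.23, and 0.059 with the block. Without both libraries numbered 1, 8 genes of the list were called and its median was -1.66, and Ngp, S100a8, S100a9 and Ltf had adjusted p of 0.0030, 0.025, 0.033 and 0.0097.

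Of 29 monocyte-stage genes tested, 25 were lower on day 7, with a median of -0.72. Chil3 was called and 6 were called lower with the block (0.407% of all genes tested). Chil3 was at 289, 121 and 104 CPM on day 5 and at 56.99, 23.96 and 26.02 on day 7, which left 20.8% of the day 5 mean. It fell by 2.27 on the log2 scale (SE 0.38, adjusted p = 0.0468). Its adjusted p was 0.0032 without both libraries numbered 1. Ly6c2, which encodes the Ly6C antigen of inflammatory monocytes, was at 260, 53.8 and 95.1 CPM and then at 59.3, 15.6 and 32.7. Here the groups overlapped, since day 7 replicate 1 lay above day 5 replicate 2, but all 3 pairs fell (adjusted p = 0.217, 0.0093 with the block). Cd177, a surface protein of neutrophils, was at 42.8, 10.5 and 9.82 CPM and then at 5.18, 2.05 and 1.89 (adjusted p = 0.0715, 0.0017 with the block). F10, coagulation factor X, was at 12.0, 4.41 and 5.00 CPM and then at 2.47, 1.699 and 2.15 (adjusted p = 0.164, 0.040 with the block). The summed list kept 0.81, 0.79 and 0.81 of its day 5 level in the 3 pairs.

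Of 41 macrophage lineage transcription factors tested, 24 were lower and 17 higher, with a median of -0.07. At an unadjusted p under 0.05, 6 were lower and 1 higher (5.00% of all genes tested, in either direction), and Myb was the only one called, joined by Cebpe with the block. Cebpe, needed for the late neutrophil granules, was at 11.1, 4.32 and 5.05 CPM on day 5 and at 2.59, 1.05 and 0.84 on day 7 (adjusted p = 0.0996, 0.013 with the block). Gfi1, the repressor that steers progenitors to granulocytes, was at 6.34, 2.06 and 2.30 CPM and then at 1.88, 0.41 and 0.84 (adjusted p = 0.40, 0.12 with the block). Spi1, which encodes PU.1, was at 364, 226 and 256 CPM on day 5 and at 362, 245 and 258 on day 7, a log2 difference of 0.03 (SE 0.21). Irf8, the monocyte-lineage interferon regulatory factor, was at 214, 195 and 213 CPM and then at 215, 188 and 191. Klf4, a monocyte factor, was at 23.4, 28.6 and 33.997 CPM and then at 20.3, 18.04 and 22.03, without overlap (log2 fold change -0.51, adjusted p = 0.42).

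Few genes were called higher. The 3 genes called higher with the block were Aldoc, aldolase C of glycolysis, Pmp22, a membrane protein best known from myelin, and Cd81, a tetraspanin. Cd81 was at 163, 155 and 175 CPM on day 5 and at 218, 247 and 248 on day 7, which did not overlap. It was higher by 0.54 on the log2 scale (SE 0.10, adjusted p = 0.0571, 0.038 with the block, 2.84e-06 to 0.453 over the alternatives). Aldoc was at 14.9, 18.98 and 15.4 CPM and then at 28.4, 34.6 and 29.9, and rose alike in the 3 pairs, by 0.92, 0.86 and 0.95 (adjusted p = 0.37, 0.019 with the block). Pmp22 was at 269, 228 and 267 CPM and then at 381, 433 and 444 (adjusted p = 0.402, 0.032 with the block). All 3 had no overlap, as 6.12% of all genes tested were higher without overlap, and they had adjusted p of 0.51, 0.46 and 0.11 (Aldoc, Pmp22, Cd81) without both libraries numbered 1.

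No complement, macrophage surface or lysosome gene was called without the block. Of 16 complement and apolipoprotein genes tested, 12 were higher and 4 lower, with a median of 0.13 and 0 called. C1qa, a chain of the complement starter C1q, was at 206, 194 and 200 CPM on day 5 and at 293, 337 and 314 on day 7. C1qb was at 621, 501 and 532 CPM and then at 772, 900 and 895, and C1qc at 477, 413 and 450 and then at 618, 686 and 674. The 3 chains had no overlap between days. The fit put them 0.66, 0.63 and 0.56 higher on the log2 scale, with an adjusted p of 0.9996 for each. Sirpa, the receptor for CD47, was at 1643, 1308 and 1644 CPM and then at 1833, 1662 and 1960, a log2 difference of 0.25 (adjusted p = 0.9996). Adgre1, which encodes F4/80, separated the pairs rather than the days, with 1449, 738 and 782 CPM on day 5 and 1636, 783 and 794 on day 7. Itgam, CD11b, was at 143, 124 and 121 CPM and then at 137, 131 and 129. Mrc1, the mannose receptor, was at 261, 304 and 298 CPM and then at 214, 598 and 549, higher in pairs 2 and 3 (log2 fold change 0.66, adjusted p = 0.9996). Among 42 macrophage surface and scavenger genes, 27 were higher and 15 lower, with a median of 0.06. Itgax, CD11c, was the one called with the block, and was lower, at 9.12, 16.97 and 20.5 CPM and then at 5.47, 5.10 and 7.92 (adjusted p = 0.45, 0.0091 with the block). Of 45 lysosome genes 28 were higher, with a median of 0.11 and 0 called.

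Most sterol synthesis genes were higher on day 7 in 2 pairs and lower in the other. Of 25 sterol synthesis genes, 24 had a higher estimate on day 7, with a median of 0.77, 10 at an unadjusted p under 0.05 (5.00% of all genes tested, in either direction) and 0 called. By pair, 3 of the 25 were higher in pair 1, 25 in pair 2 and 24 in pair 3. The summed list went from 1124 to 1020 CPM in pair 1, from 1140 to 2355 in pair 2 and from 1056 to 2149 in pair 3. Hmgcs1, an early enzyme of cholesterol synthesis, was at 41.3, 40.6 and 37.2 CPM on day 5 and at 36.8, 113 and 96.0 on day 7. Lss, lanosterol synthase, was at 25.3, 19.7 and 19.1 CPM and then at 22.3, 83.6 and 72.01. On day 5 the 3 libraries lay together for both genes, and on day 7 the library numbered 1 stayed at the day 5 level. Their adjusted p were 0.80 and 0.68, and without both libraries numbered 1 they were 0.37 and 0.31, with 19 of the 25 genes at an unadjusted p under 0.05, where 8.02% of all genes were.

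The fatty acid list moved in the same pairs, from 1469 to 1304 CPM, from 1287 to 2970 and from 1295 to 2801. Scd1, stearoyl-CoA desaturase, was at 5.98, 1.28 and 1.55 CPM on day 5 and at 2.35, 53.5 and 52.9 on day 7 (adjusted p = 0.94). Lpin1, the phosphatidate phosphatase lipin 1, was at 8.11, 8.24 and 7.52 CPM and then at 9.59, 21.4 and 19.2, without overlap (log2 fold change 1.07, adjusted p = 0.72). Dgat2, which makes triglyceride, was lower on day 7 in all 3 pairs, going from 12.0, 4.07 and 3.50 CPM to 3.65, 1.23 and 1.15 (adjusted p = 0.40, 0.0062 with the block). The WT libraries also differed within a day in the sterol list, which summed to 2326, 1244 and 1273 CPM on day 5 and to 3072, 1201 and 2694 on day 7. What sets these libraries apart was not tested.

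**Figure D2:**
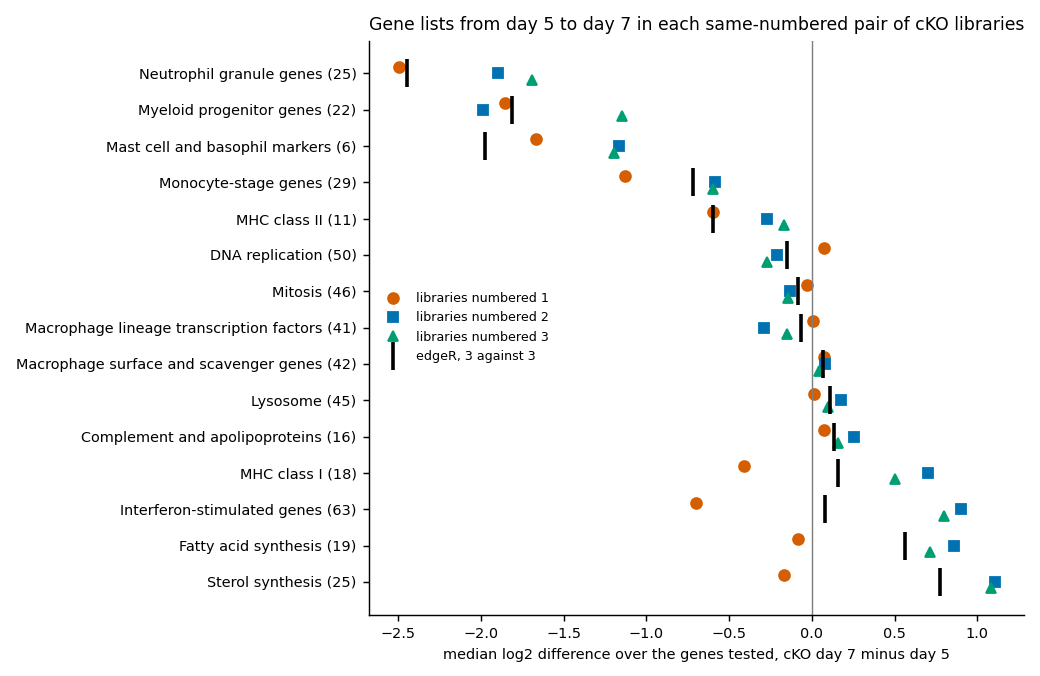
Median log2 difference between day 7 and day 5 over the tested genes of 15 lists (number of genes in parentheses), with 1 symbol for each same-numbered pair of cKO libraries and a black tick for the median edgeR estimate. The 3 pairs lie below 0 for the neutrophil granule, progenitor, mast cell, monocyte-stage, MHC class II and mitosis lists. They lie above 0 for the macrophage surface, lysosome and complement lists. Pair 1 lies on the other side of 0 from pairs 2 and 3 for the interferon, MHC class I, sterol and fatty acid lists. It also does for DNA replication (0.08 in pair 1) and for lineage transcription factors (0.007 in pair 1).

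The ISGs had no direction common to the 3 pairs. The 63 ISGs tested had a median log2 fold change of 0.08, with 35 higher and 28 lower, 0 called and 0 at an unadjusted p under 0.05. By pair, 0 of the 63 were higher in pair 1, 62 in pair 2 and 63 in pair 3. The list summed to 18636, 4773 and 5515 CPM on day 5 and to 11964, 8935 and 9717 on day 7. Day 5 replicate 1 was thus the highest of the 6 libraries and the other day 5 libraries were the lowest, and day 7 lay between. Without both libraries numbered 1, the median was 0.81, with 62 of 63 higher, 11 at an unadjusted p under 0.05 (8.02% of all genes) and 0 called. The 12 B cell markers summed to 45.3, 19.9 and 23.9 CPM on day 5 and to 15.5, 47.6 and 57.2 on day 7. Ighm, the heavy chain of IgM, made up most of the sums of pairs 2 and 3 on day 7, and of the 9 markers tested 2, 3 and 4 were higher in pairs 1, 2 and 3. Their part in the ISG values was not tested.

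Ifi44, an ISG of the antiviral response, was at 306, 24.3 and 32.3 CPM on day 5 and at 146, 78.7 and 95.6 on day 7. Its log2 fold change was -0.18 (SE 0.85) and 1.59 (SE 0.80, adjusted p = 0.65) without both libraries numbered 1. Ifit1bl1, of the IFIT family, was at 57.8, 2.80 and 2.64 CPM and then at 11.2, 5.86 and 6.87. In both genes day 5 replicate 1 was the highest and the day 7 libraries fell inside the range of day 5. Ifi27l2a differed, at 218, 64.0 and 96.2 CPM and then at 141, 222 and 277. The 18 MHC class I genes, many of them induced by interferon, had a median of 0.16, and 1, 18 and 17 of them were higher in pairs 1, 2 and 3. MHC class II genes had a lower estimate in all 11 cases, with a median of -0.60 and 0 called. The medians of pairs 1, 2 and 3 were -0.60, -0.27 and -0.17, with 0, 2 and 1 genes higher. Without both libraries numbered 1 the median of the list was -0.37. Cd74, the invariant chain, was at 95.0, 78.9 and 98.8 CPM and then at 35.8, 52.9 and 77.6, without overlap (adjusted p = 0.9996). H2-Eb1, a class II beta chain, was at 23.5, 11.2 and 22.5 CPM and then at 5.76, 8.49 and 15.2, with overlap.

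**Figure D3:**
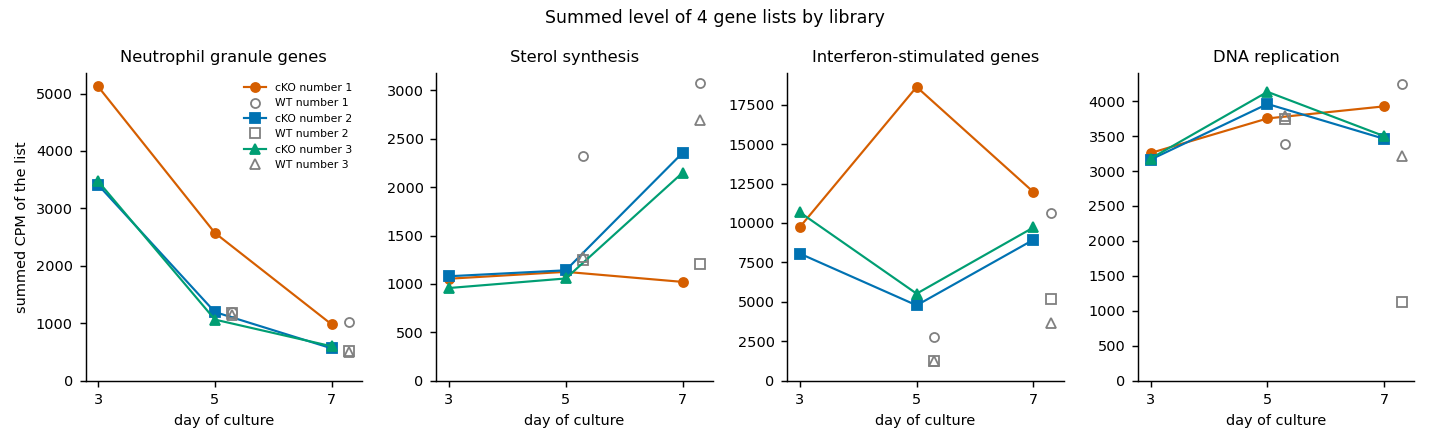
Summed CPM of 4 gene lists by day of culture, with filled symbols and lines for the cKO libraries and open grey symbols, drawn just to the right of days 5 and 7, for WT libraries. Granule genes fall along every cKO line, the sterol list rises to 2355 and 2149 CPM in pairs 2 and 3 and ends at 1020 in pair 1, and the interferon list peaks at 18636 CPM in day 5 replicate 1.

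No proliferation gene was called in cKO cells. Of 50 DNA replication genes, 48 had a lower estimate, with a median of -0.15, 0 called and 0 at an unadjusted p under 0.05. The list summed to 3753, 3960 and 4134 CPM on day 5 and to 3927, 3461 and 3498 on day 7, so that it was higher on day 7 in pair 1 and lower in pairs 2 and 3. Of 46 mitosis genes 38 were lower, with a median of -0.08. Mki67, the proliferation marker Ki-67, was at 436, 908 and 880 CPM on day 5 and at 529, 955 and 1006 on day 7, higher in all 3 pairs and lowest in the library numbered 1 on both days (log2 fold change 0.16, SE 0.36). Pola2, a subunit of DNA polymerase alpha, was at 51.9, 53.8 and 56.6 CPM and then at 46.9, 45.9 and 48.9 (log2 fold change -0.20, adjusted p = 0.9996). Cdkn1a, the cell cycle inhibitor p21, was at 372, 242 and 250 CPM and then at 389, 190 and 197.

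The same step was read in WT cells. WT day 7 against WT day 5 had 38 genes called (0.238%), 26 lower and 12 higher. At an unadjusted p under 0.05 there were 2760 genes in the WT step (17.3%) and 797 in the cKO step (5.00%). The 9 genes called in cKO cells were all lower in WT cells too, and 6 of them (66.7%) were among the WT calls, which they made up by 15.8%. Elane fell by 3.77 on the log2 scale in WT cells and 2.95 in cKO cells, a difference of 0.82 (SE 0.70, adjusted p = 0.99). Chil3 fell by 2.31 and 2.27 and Myb by 2.01 and 2.05. Ngp fell by 2.48 and 2.58. Medians of the progenitor, neutrophil granule and monocyte-stage lists were -2.06, -1.85 and -0.50 in WT cells. The levels were not the same. Elane was at 13.8, 16.1 and 20.7 CPM in WT libraries of day 5 and at 1.25, 0.70 and 1.65 on day 7, so that the cKO libraries of day 7 lay above every WT library of day 7 and below every WT library of day 5. Ly6c2 was at 14.7, 12.8 and 13.9 CPM in WT cells on day 5 and at 2.66, 1.82 and 3.15 on day 7, and every cKO library of day 7 lay above every WT library of either day. Summed neutrophil granule genes, at 1194, 1172 and 1139 CPM in WT cells on day 5 and 1022, 513 and 501 on day 7, overlapped those of the cKO libraries on both days.

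**Figure D4:**
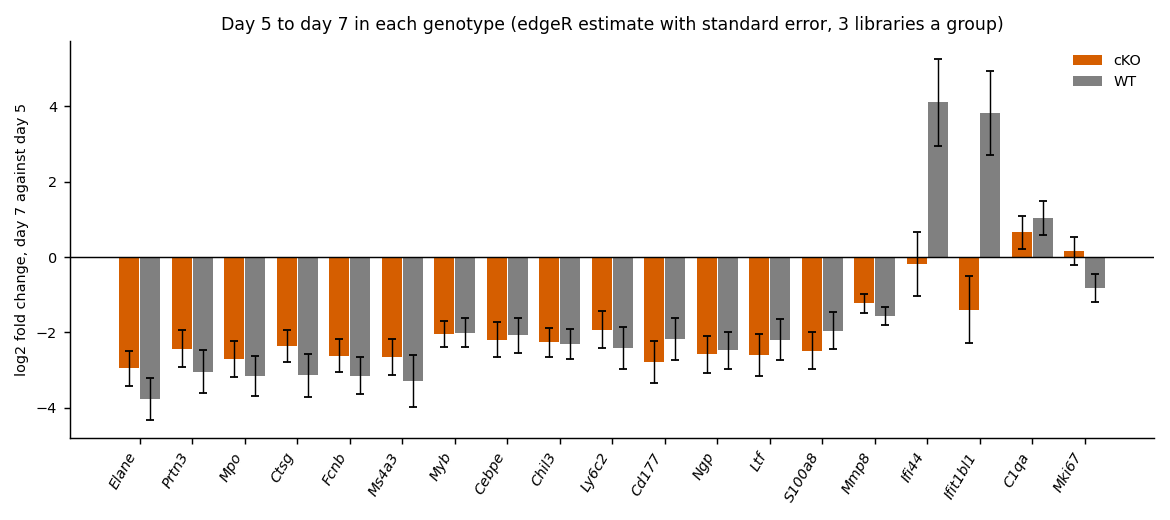
Log2 fold change between day 7 and day 5 in cKO (orange) and WT (grey) cells for 19 genes, as edgeR estimates with standard errors from 3 libraries a group. The progenitor, granule and monocyte-stage genes lie below 0 in both genotypes, Elane at -2.95 in cKO and -3.77 in WT cells, and Ifi44 lies at 4.11 in WT cells and at -0.18 in cKO cells.

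In the test of the cKO step minus the WT step, 0 genes were called by edgeR, 574 had an unadjusted p under 0.05 (3.60%), and DESeq2 called 1. For the ISGs the median was 2.04 in the WT step against 0.08 in the cKO step, the median difference was -2.25, and 56 of the 63 had an unadjusted p under 0.05 with 0 called. The difference was not fitted without both cKO libraries numbered 1, where the cKO median of the ISGs was 0.81. Ifi44 was at 1.85, 0.28 and 0.36 CPM in WT libraries of day 5 and at 34.3, 3.92 and 3.57 on day 7, below every cKO library except that day 7 replicate 1 passed the 2 lowest of cKO day 5. The difference for Ifi44 was -4.29 (SE 1.44, adjusted p = 0.99). The WT list went from 2764, 1254 and 1255 CPM to 10640, 5183 and 3682, while cKO pairs 2 and 3 started higher and ended at 1.87 and 1.76 times their day 5 sums. MHC class I followed with a median difference of -1.02 and 12 of 18 genes at an unadjusted p under 0.05. Mitosis genes had medians of -0.60 in WT and -0.08 in cKO cells, with Mki67 at 1265, 1044 and 1121 CPM in WT libraries of day 5 and 585, 307 and 1043 on day 7. At an unadjusted p under 0.05, 24 of the 46 were lower and 1 higher in the WT step (17.3% of all genes, in either direction). In the cKO step 0 were (5.00% of all genes). The difference between the steps was above 0 in 45 of the 46 genes, none of them at an unadjusted p under 0.05. The 1 gene at an unadjusted p under 0.05 had a difference below 0. WT day 7 replicate 2 held 1120 CPM of DNA replication genes, against 3209 and 4244 in the other WT libraries of that day. Across the 15955 genes the cKO and WT log2 fold changes correlated with r of 0.42 and rho of 0.40.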

How the data were processed

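The deposited gene counts were made by the authors with STAR on mm10 as raw counts per gene without normalization, from reads trimmed with Cutadapt, and the column without regard to strand was used. All 55450 gene IDs matched GENCODE M21 for names and positions. Counts of the 18 time-course libraries were filtered with filterByExpr (smallest count 10, total 15), scaled by TMM and fitted in edgeR 4.0.16 with 1 mean for each genotype and day, and quasi-likelihood tests were Benjamini-Hochberg adjusted over 15955 genes. CPM are on TMM-scaled totals. Alternatives used DESeq2 1.42.0 and limma 3.58.1, among others. Same-numbered libraries deviated from their group means together in cKO cells (correlations 0.45, 0.49 and 0.23, all over 0.1) and not in WT cells (-0.14, -0.09 and 0.05). Among differently numbered cKO libraries, day 5 replicate 2 and day 7 replicate 3 were also over 0.1, at 0.19. The pairing thus comes from the data, not the labels, and it was looked at for days 5 and 7 only. The block fit has a term for each number within each genotype, over days 3, 5 and 7. It thus also has these terms for WT libraries, which did not deviate together, and for day 3, where pairing was not looked at. Its estimate of the spread comes from all 18 libraries, so its standard errors and p-values in cKO cells rest partly on those. The labels call the libraries of a group biological replicates and do not name the mouse of each. The p-values measure the spread between these libraries. On simulated counts for the 15955 genes in cKO day 7 against day 5, 62 of 100 genes changed 2-fold and 83 of 100 changed 4-fold were recovered, with 5 false calls. The simulated libraries of a group differed at random only, without the gap between the libraries numbered 1 and the others. These shares therefore do not give the recovery to be had in the real libraries. The 39 gene lists and the comparison were chosen with earlier results of these data known. Genes were named by rule: up to 12 per direction with adjusted p under 0.05, mean log2 CPM of at least 3 and no overlap, 6 per direction in the cKO minus WT contrast, up to 5 per list with the smallest p, and genes the study discusses, and others are named after their values were seen.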

Additional observations from a re-analysis of the deposited data

How the results depend on the processing

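The number of genes called depended strongly on the fit, while the 9 genes called kept their direction in every fit. List members were less steady, with 25 monocyte-stage and 24 neutrophil granule genes lower with all libraries and 22 and 23 without both libraries numbered 1. For cKO day 7 against day 5, the 9 calls (0 higher, 9 lower) became 98 with DESeq2 (8 higher, 90 lower), 3689 with limma voom and quality weights (1865 higher, 1824 lower), 97 without a filter on low counts (4 higher, 93 lower), 10 with a mean of at least 1 CPM (1 higher), 0 with only the libraries of the contrast, 33 with a replicate block shared by the genotypes (1 higher, 32 lower), 68 with the replicate block within genotype (3 higher, 65 lower), 23 with the replicate block in only the 6 cKO libraries (1 higher, 22 lower) and 31 lower without both cKO libraries numbered 1, the last 2 settings being chosen after seeing the data. RLE normalization gave 8 calls, the strand column with the larger total 11 and an absolute log2 fold change of at least 1 gave 9. Without 1 cKO library the calls ranged from 0 to 47, the higher calls from 0 to 6 and the lower calls from 0 to 41. For WT day 7 against day 5, the 38 calls became 579 with DESeq2, 1661 with limma voom, 592 without the filter, 13 with only the libraries of the contrast, 25 with RLE, 258 with the shared replicate block and 245 with the block within genotype, and ranged from 1 to 523 without 1 WT library. The 0 calls of the cKO step minus the WT step became 1 with DESeq2, 2 with limma voom, 19 without the filter and 1 with the shared replicate block, and ranged from 0 to 1 without 1 library. Signs were compared for named genes only. Among those, they changed only for genes with a small change or high spread between the libraries numbered 1 and the others. Ifi44, at -0.18, became 1.40 with limma voom, 0.69 with the shared block, 0.53 with the block within genotype, 0.74 with the block in the 6 cKO libraries and 1.59 without both libraries numbered 1, and Ifit1bl1, at -1.40, became 1.01 with limma voom and 1.19 without them. H3f3b (-0.03) became 0.0495 and 0.0312 and Lyz2 (0.20) became -0.34 and -0.44 under the same 2 settings, and Bcl2l11 became -0.00089 on the strand column. Leaving out 1 cKO library gave -0.66 to 1.90 for Ifi44, -1.93 to 1.54 for Ifit1bl1, -0.33 to 0.48 for Adgre1, -0.015 to 0.10 for Itgam, -0.17 to 0.25 for Spi1, -0.12 to 0.40 for Mki67, -0.57 to 0.064 for Cdkn1a, -0.26 to 0.0072 for H3f3a, -0.13 to 0.11 for H3f3b, -0.41 to 0.49 for Lyz2 and -0.052 to 0.15 for Bcl2l11. The cause was not tested. With 3 libraries a group, a gene at 1 CPM rests on about 16 to 19 reads.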

Other observations

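Of 10 mast cell and basophil markers 6 were tested and all 6 were lower, with a median log2 fold change of -1.98, and summed to 15.5, 4.02 and 4.36 CPM on day 5 and to 2.9996, 1.52 and 1.26 on day 7. Nkg7, a granule protein of NK and T cells, was at 1.30, 0.54 and 0.52 CPM and then at 0.24, 0.12 and 0.052 (0.045 as adjusted p with the block). Hdc, histidine decarboxylase, was at 9.30, 1.96 and 1.67 CPM and then at 1.35, 0.70 and 0.68 (adjusted p = 0.37, 0.025 with the block). Itga2b, the platelet integrin of megakaryocytes, was at 4.15, 5.05 and 5.80 CPM and then at 0.65, 0.35 and 0.58, without overlap (log2 fold change -3.23, adjusted p = 0.16, 0.07 with the block). Gas6, a ligand of the receptors that clear dead cells, was at 165, 152 and 163 CPM and then at 164, 440 and 422, and Pltp, phospholipid transfer protein, at 56.9, 33.6 and 55.9 and then at 92.3, 116 and 140, with 0 calls for both by edgeR. Nqo1, an NRF2 target, followed the pairs in the other direction, at 12.7, 17.5 and 17.3 CPM and then at 17.7, 6.91 and 7.45.

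Some genes discussed for H3.3cKO cells showed no call in this step. Bcl2l11, the cell death gene Bim, was at 174, 133 and 155 CPM on day 5 and at 175, 135 and 166 on day 7. Col1a1, a collagen chain, was at 40.4, 41.4 and 56.3 CPM and then at 76.9, 54.5 and 60.8, against 23.4 CPM at most in the WT libraries of both days. Rac3, a small GTPase, was at 2.01, 2.06 and 2.18 CPM and then at 2.94, 3.63 and 3.15, without overlap (log2 fold change 0.63, adjusted p = 0.56). Sptssa, a subunit of serine palmitoyltransferase, was at 38.9, 50.1 and 47.9 CPM and then at 45.3, 60.7 and 61.4.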
